A study of Mus musculus with 2 samples.

Results

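Transcripts of 10 integrin chains were compared between activated and naive CD8+ T cells: the alpha chains Itga1, Itga4, Itga6, Itgae, Itgal and Itgav and the beta chains Itgb1, Itgb2, Itgb3 and Itgb7. The chains were taken by name, as every probe set whose platform annotation gives only that gene, which yielded 28 probe sets for 10 of the 18193 genes named in this way. Activated cells were proliferating CD8+ T cells collected 72 h after activation, and naive cells were purified CD8+ T cells that had not been activated. Cells of both groups came from pmel-1 mice, whose T cells express a transgenic receptor for a melanocyte protein, so that the controls share this receptor. The sources used here do not give the stimulus, the source organ, the purification method or the age of the mice. Each group was 1 whole-genome mouse array hybridised with RNA pooled from 4 independent experiments. The spread between experiments therefore cannot be seen, no difference below carries a replicate error or a test, and precision is limited by the use of 1 array a group.

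Integrins are adhesion receptors made of an alpha and a beta chain, and the pairing sets what the cell can bind. On T cells the beta2 chain pairs with alphaL to bind ICAM molecules, and the beta7 chain pairs with alpha4 to bind the gut vessel molecule MAdCAM or with alphaE to bind E-cadherin on epithelium. The beta1 chain pairs with many alpha chains, among them alpha4 for VCAM and fibronectin, alpha6 for laminin and alpha1 for collagen. Integrins on resting lymphocytes are mostly bent and weakly adhesive, and signals from antigen or chemokine receptors switch them on through talin, kindlin and the small GTPase Rap.

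Values are deposited intensities on a linear scale. Values under 100, where the difference model carries little information, were raised to 100 before a ratio was formed, so that a fold with 1 value under 100 is a lower bound and a probe set under 100 on both arrays has no ratio and counts as not measured. The size rule asked of a probe set a ratio of 1.4 or more together with a gap between the deposited values above 100, and each gene was read by the probe set whose mean over the arrays was highest. Of the 9 measured integrin chains, 7 were lower in activated cells, 1 was higher and 1 did not pass the rule. Over all 9842 measured genes, 20.6% were lower and 23.7% higher by the same rule. The median log2 ratio of activated over naive cells was -0.86 for the 9 chains, against 0.01 for all measured genes. By probe set, 10 of 15 measured ones were lower and 3 higher, against 19.3% lower and 21.9% higher over all measured probe sets. No chain had probe sets past the rule in both directions. Among probe sets at or above 100 on both arrays, the log2 ratios of those of the same gene differed with a standard deviation of 0.39. This is the nearest available measure of spread. It reflects differences between probe sets of a gene, and error shared by a whole array or RNA pool is not in it.

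**Figure D1:**
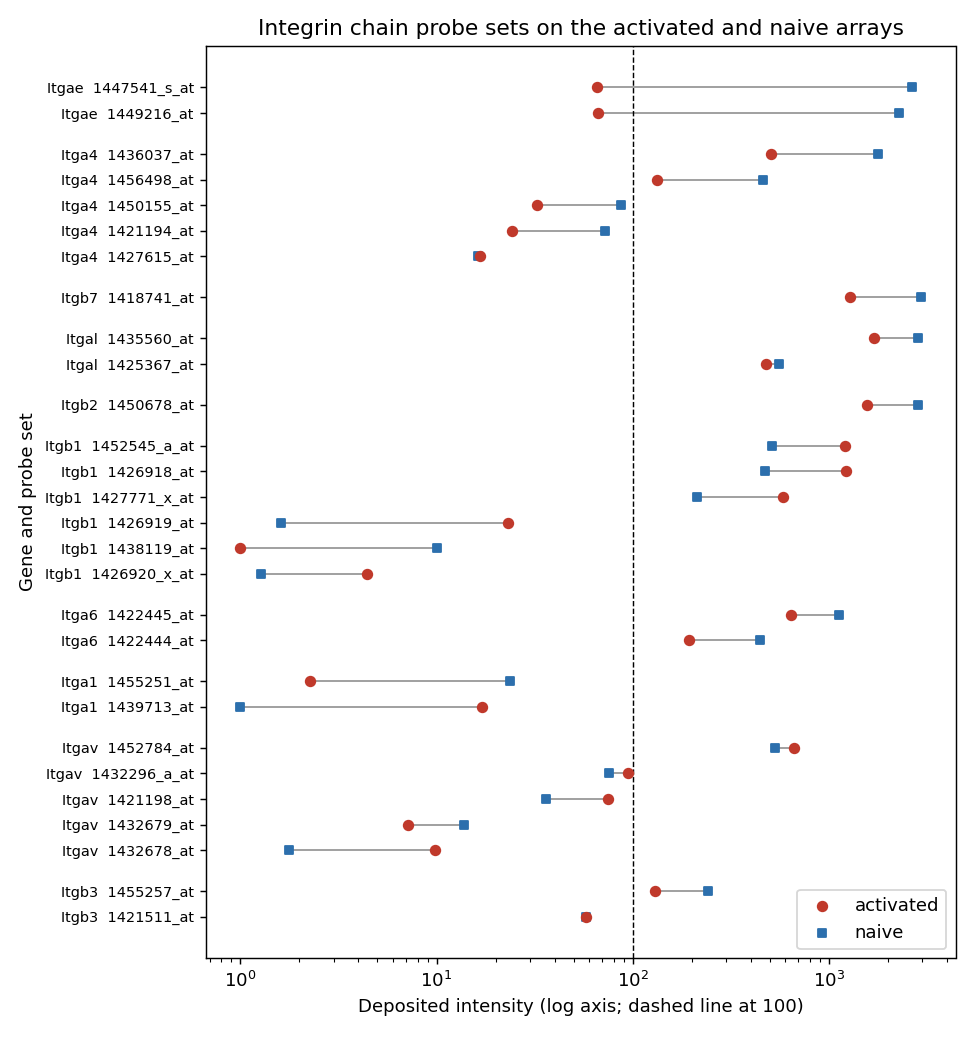
Deposited intensity of each of the 28 integrin probe sets on a log axis, with the activated array as circles, the naive array as squares and a dashed line at 100. The Itgae probe sets lie near 66 on the activated array and at 2281 or more on the naive array, while the 3 measured Itgb1 probe sets lie further right on the activated array.

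The transcripts of both CD8 chains were abundant on the 2 arrays, and T cells of the CD4 type left little signal. Cd8a was at 4860.0 in activated cells and 6020.4 in naive cells, and Cd8b1 at 3554.0 and 7725.0, 2.17-fold lower. The brightest of 5 Cd8a probe sets did not pass the size rule, while the other 4 were lower, down to a log2 ratio of -1.39. The T cell receptor markers Cd3d (6597 in activated and 7378 in naive cells), Cd3e (2724 and 3035) and Cd3g (5323 and 6261) did not pass. Their log2 ratios were -0.16, -0.16 and -0.23. Zap70, at 1171 and 1524, did not pass either (log2 ratio -0.38). The CD4 markers Cd4, Foxp3 and Cd40lg were under 100 on both arrays. Several markers of other blood cells were lower on the activated array. B cell markers were past the size rule and lower for 2 of 4 measured genes, against 20.6% lower over all measured genes. Their summed intensity over 5 genes with a probe set was 426 in activated and 982 in naive cells. Macrophage and monocyte markers were lower for 2 of 2 measured genes (sums of 566 and 985 over 6 genes). Of the NK markers, the 1 measured gene, Klra8 at 29.9 and 242, was lower (sums of 57.7 and 297 over 2 genes). The rule was passed by 0 of 2 measured platelet markers (sums of 502 and 555), 0 of 1 neutrophil marker (273 and 293) and 0 of 3 erythroid markers (290 and 361). No dendritic cell marker (198 and 226) and no endothelial or stromal marker (191 and 190) was measured. These groups are too small for their counts to be set against the share over all genes. The sums include values under 100, which carry little information, and the dendritic and the endothelial or stromal sums hold only such values. In pooled RNA of this kind, fewer cells of a type and less RNA per cell cannot be told apart.

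Itgae, which encodes the alphaE chain CD103, was the lowest of the 9 measured chains in activated over naive ratio. Its brightest probe set was at 65.7 in activated cells and 2663 in naive cells, at least 26.6-fold lower. The other probe set was at 66.6 and 2281, at least 22.8-fold lower. Both probe sets thus placed the transcript below the comparison level in activated cells and high in naive cells. Because the activated values lie under the floor, these folds are bounds that move with it, and the place of Itgae among all genes is not given. Dendritic cells can carry CD103 too, and all 5 of their markers with a probe set, among them Flt3 (57.5 in activated and 61.8 in naive cells) and Cd209a (53.3 and 53.5), lay under 100 on both arrays. Itgax, an alpha chain common on these cells, was at 27.6 and 115, lower in activated cells but not past the rule, and the part of such cells in the Itgae values was not tested. In the RefSeq gene table, Haspin, which encodes a mitotic histone kinase, lies inside the Itgae gene. Haspin went the opposite way to its host, at 304 in activated and 42.6 in naive cells, at least 3.04-fold higher.

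Itgb7, which encodes the beta chain that alphaE requires, was lower by a far smaller factor than Itgae. Its only probe set was at 1282 in activated cells and 2976 in naive cells, 2.32-fold lower (log2 ratio -1.21). The transcript thus remained well above the comparison level on both arrays. Of all measured genes, 6.21% had a lower ratio.

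Itga4, which encodes the other partner of beta7 and also a partner of beta1, was lower on each probe set that could be compared. The brightest was at 506 in activated cells and 1787 in naive cells, 3.53-fold lower, and the next at 133 and 462, 3.47-fold lower. These log2 ratios of -1.82 and -1.80 differed by less than the spread between probe sets of a gene. The other 3 probe sets lay under 100 on both arrays, and the brighter pair of these, at 32.7 and 24.2 in activated cells and 87.0 and 72.0 in naive cells, was lower in activated cells as well, although too dim for a ratio. The fifth was at 16.6 and 16.4. Of all measured genes, 2.08% had a lower ratio than Itga4. Every measured chain of the mucosal pairs alphaE-beta7 and alpha4-beta7 was therefore lower in activated cells.

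The chains of the ICAM receptor were both lower, by less than 2-fold. Itgb2, which encodes the beta2 chain, was at 1569 in activated cells and 2846 in naive cells, 1.81-fold lower on its only probe set. Itgal, which encodes alphaL, was at 1699 and 2848 on its brightest probe set, 1.68-fold lower. The second Itgal probe set, at 478 in activated and 558 in naive cells, did not pass the size rule (log2 ratio -0.22). The lower call for Itgal therefore rested on 1 of its 2 probe sets, and the median over both, a log2 ratio of -0.48, did not pass either. The beta2 chain is shared with myeloid integrins. Itgam, the alpha chain of macrophages and granulocytes, lay under 100 on both arrays (71.9 and 86.9), and Itgax, given above, did not pass. The macrophage markers Csf1r (345 and 642) and Lyz2 (21.8 and 173) and the B cell marker Cd79b (40.0 and 293) were lower in activated cells too, and their part in the lower Itgb2 and Itgal values was not tested. For Csf1r, 1 of 2 measured probe sets did not pass (log2 ratio -0.20).

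Itgb1, which encodes the beta1 chain, was the only measured chain past the size rule in the upward direction. Its probe set with the highest mean was at 1214 in activated cells and 514 in naive cells, 2.36-fold higher (log2 ratio 1.24). A second was at 1227 and 474, 2.59-fold higher. The third, at 586 and 212, was 2.76-fold higher. All 3 measured probe sets were thus higher in activated cells and lay within 0.23 of each other on the log2 scale. The first carries the suffix a and the third the suffix x, and the annotation gives both the same source sequence. The second carries no such suffix and gave a log2 ratio of 1.37. The remaining 3 were under 25 on both arrays and cannot be compared. Of all measured genes, 91.8% had a lower ratio than Itgb1.

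No alpha partner of beta1 among the 10 chains passed the size rule in the upward direction. Itgav, a partner described below, had a log2 ratio of 0.32 and did not pass. Itga6, the alpha chain of the laminin receptor, was at 643 in activated cells and 1131 in naive cells, 1.76-fold lower. Its other probe set, at 193 and 449, was 2.32-fold lower. Itga1, the alpha chain of a collagen receptor found on tissue T cells, was under 100 on both arrays, at 2.26 and 23.6 on one probe set and at 17.2 and 1 on the other, so no direction can be given. Itga4 was lower, as above. The beta1 transcript thus differed upward while 2 of its partners, Itga4 and Itga6, differed downward.

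Itgav, whose alphaV chain pairs with beta1, beta3 and further beta chains to bind vitronectin, fibronectin and latent TGF-beta, lay nearest to no difference among the measured chains. Its brightest probe set was at 665 in activated cells and 532 in naive cells (log2 ratio 0.32), within the spread between probe sets of a gene. The next of its probe sets were at 94.7 and 75.2 in activated cells and 75.9 and 36.3 in naive cells, in the same direction but too dim for a ratio, and the dimmest pair lay under 15 on both arrays. Itgb3, the beta chain of the vitronectin receptor and of the platelet fibrinogen receptor, was at 130 and 242, 1.87-fold lower. The activated minus naive difference of -113 lay just past the minimum of 100 in size, and the second Itgb3 probe set was at 58.2 and 57.9. Itga2b, its platelet partner, was at 165 in activated and 165 in naive cells, and the platelet markers Pf4 (190 and 209) and Gp6 (154 and 181) did not pass the rule.

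**Figure D2:**
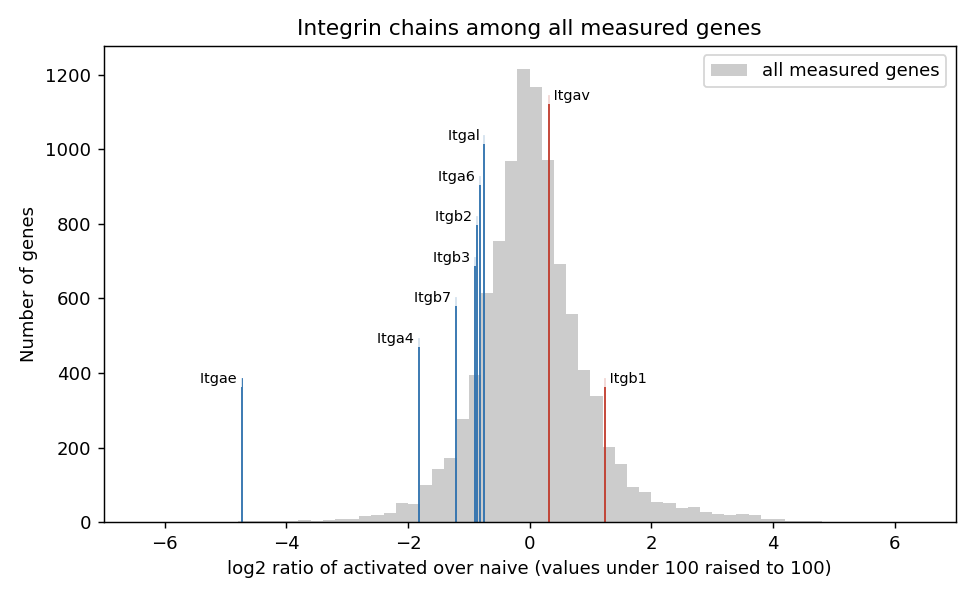
Distribution of log2 ratios of activated over naive cells for all 9842 measured genes (grey bars, number of genes), with a labelled line at each of the 9 measured integrin chains; line heights differ only to separate the labels. Itgae stands at -4.73, 6 further chains lie between -1.82 and -0.75, Itgav lies at 0.32 and Itgb1 at 1.24.

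Promoter sequence from RefSeq (build GRCm38.p6) was at hand for 5 of the 10 chains, Itga1, Itga4, Itgav, Itgb1 and Itgb7, as 250 bases before to 50 bases after the gene start. The promoters of 2 lower chains and of the higher chain are shown because they belong to the members that moved apart. Capitals mark every match, on either strand, to the RUNX core TGTGGT, the GC box GGGCGG, the CACCC box CACCC, the SMAD box CAGAC and the ETS core CCGGAA, and matches may overlap. Itga4 lies at chr2:79255176-79255475 on the plus strand, Itgb7 at chr15:102231886-102232185 on the minus strand and Itgb1 at chr8:128685404-128685703 on the plus strand.
Itga4: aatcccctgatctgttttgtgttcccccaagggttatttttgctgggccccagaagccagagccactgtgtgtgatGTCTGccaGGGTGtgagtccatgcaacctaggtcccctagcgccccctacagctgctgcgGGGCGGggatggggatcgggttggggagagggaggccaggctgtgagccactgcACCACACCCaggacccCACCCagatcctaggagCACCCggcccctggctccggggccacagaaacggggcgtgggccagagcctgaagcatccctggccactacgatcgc
Itgb7: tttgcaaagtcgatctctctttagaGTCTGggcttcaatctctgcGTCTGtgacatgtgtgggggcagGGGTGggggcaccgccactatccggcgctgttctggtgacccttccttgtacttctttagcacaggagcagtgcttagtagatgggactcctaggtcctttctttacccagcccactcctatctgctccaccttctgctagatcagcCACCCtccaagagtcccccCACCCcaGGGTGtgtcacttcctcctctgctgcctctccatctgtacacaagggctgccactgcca
Itgb1: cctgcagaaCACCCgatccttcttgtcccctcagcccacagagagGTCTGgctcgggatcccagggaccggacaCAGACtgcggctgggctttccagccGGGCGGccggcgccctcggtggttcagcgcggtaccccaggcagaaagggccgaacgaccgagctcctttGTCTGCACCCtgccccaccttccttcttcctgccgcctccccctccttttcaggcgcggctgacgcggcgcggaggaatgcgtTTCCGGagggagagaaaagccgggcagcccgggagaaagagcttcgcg

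The content of G and C was 64.3% for Itga4, 56.3% for Itgb7 and 67.3% for Itgb1, with 67.3% for Itgav and 56.7% for Itga1, and the median over 32851 RefSeq promoters was 52.7%. The CACCC box, a motif that Kruppel-like factors can bind, occurred 4 times in each of the Itga4 and Itgb7 windows. It occurred 2 times in the Itgb1 window, 2 times for Itga1 and 1 time for Itgav. Of all promoters, 57.5% held it at least 1 time, so the number of matches has no comparison over all promoters. The RUNX core occurred 1 time for Itga4, where it overlaps a CACCC box, and in neither other window (16.8% of all promoters). The ETS core occurred 1 time for Itgb1 and in neither lower chain (14.9%). SMAD boxes numbered 1, 2 and 3 for Itga4, Itgb7 and Itgb1 (49.6%), and the GC box occurred 1 time each for Itga4 and Itgb1 (35.7%). The windows thus differed in letters, and a match describes the sequence only.

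Integrin chains outside the 10 gave little signal and none passed the size rule. Of 14 with a probe set, 9 were under 100 on both arrays and 5 were measured, with a median log2 ratio of -0.07. Over all measured genes, 20.6% were lower and 23.7% higher, and 5 genes are too few to be set against these shares. Besides Itgax and Itga2b, these were Itgb5 (233 in activated and 316 in naive cells), Itga5, the fibronectin receptor alpha chain (184 and 194), and Itga3 (148 and 131). Itga2, the other collagen receptor alpha chain, was at 24.7 and 6.30, and Itga11 and Itgad were not analysed here.

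Of 18 integrin ligand genes with a probe set, 13 were under 100 on both arrays, among them the matrix and vessel genes Fn1, Vtn and Vcam1. Of the 5 measured, 2 were lower and 1 was higher, too few to be set against the 20.6% and 23.7% over all measured genes. Icam1 and Icam2, ligands of alphaL-beta2 that T cells carry themselves, were both lower. Icam1 was at 391 in activated cells and 713 in naive cells (1.83-fold lower), and Icam2 at 443 and 833 (1.88-fold lower). Receptor and ligand of this pair therefore differed in the same direction. Tgfb1, whose latent form alphaV integrins bind, was at 1034 and 658, 1.57-fold higher, although its other measured probe set gave a log2 ratio of -0.04. Cdh1, the E-cadherin gene whose product alphaE-beta7 binds, was at 8.53 and 131 and did not pass, and Lamc1 was at 94.3 and 102 with another probe set past the rule and higher (log2 ratio 0.84).

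A list of genes that regulate or accompany integrins was lower for 13 of 27 measured members and higher for 7, against 20.6% lower and 23.7% higher over all measured genes, with a median log2 ratio of -0.39. The list mixes links that promote integrin activation with genes that restrain it and with membrane partners. Of its 13 lower members, Sipa1, which turns Rap off, was at 400.1 in activated cells and 738 in naive cells (1.84-fold lower), Sharpin, an integrin inhibitor, at 577 and 898 (1.56-fold lower), and Cytip, which restrains cytohesin, at 3493 and 5150.4 (1.47-fold lower). For Cytip, 1 of 3 probe sets did not pass (log2 ratio -0.29). Sipa1, Sharpin and Cytip were named after their values were seen. Fyb, the adaptor ADAP that links the T cell receptor to integrin activation, was at 1267 in activated cells and 4110 in naive cells (3.25-fold lower on the brighter of 2 probe sets, both past the rule). Its binding partner Skap1 was at 801 and 1861, 2.32-fold lower, and was named after its values were seen. Cyth1, cytohesin, a regulator of beta2 adhesion, was at 933 and 2882, 3.09-fold lower. Rasgrp1, an exchange factor downstream of the receptor, was at 806 and 1875, 2.33-fold lower, with all 4 probe sets past the rule. Apbb1ip, the Rap effector RIAM that brings talin to the membrane, was at 606 and 1440 (2.38-fold lower), although its second probe set gave a log2 ratio of -0.07.

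Talin, kindlin and Rap themselves gave less clear values. Tln1, talin, was at 1000 in activated cells and 1944 in naive cells on its brightest probe set (1.94-fold lower), and at a log2 ratio of 0.03 on the other. Fermt3, the blood cell kindlin, was at 3097 and 3991 and did not pass, with its 4 probe sets between -0.95 and 0.00 on the log2 scale. Tln1 and Fermt3 were named after their values were seen. The Rap gene Rap1b was nearly level, at 6558 and 6502, as was the integrin-binding Cib1 at 731 and 808.

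The 7 higher members were a share close to that over all genes. The count was 4 when probe sets whose names carry the suffix a, s or x were left out. Cd81 and Cd9, tetraspanins that associate with beta1 integrins, were at 746 in activated and 147 in naive cells (5.07-fold higher) and at 761 and 194 (3.93-fold higher). Bsg, basigin, another membrane partner, was at 2801 and 1073, 2.61-fold higher on its only probe set, which carries the suffix a. Raph1, lamellipodin, a relative of RIAM, was at 646 and 21.3, at least 6.46-fold higher, with its 3 probe sets spread between 0.31 and 2.69 on the log2 scale. Membrane partners did not share a direction. The tetraspanin Cd151, also a partner of beta1 integrins, did not pass, at 108 and 126, with its 4 measured probe sets between -0.34 and -0.12 on the log2 scale. Cd47, a partner of beta3 integrins, was 1.56-fold higher on its brightest probe set, at 5333 and 3411, but 2 of its 4 measured probe sets were lower, down to a log2 ratio of -0.79. Cd151 and Cd47 were named after their values were seen.

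Genes of adhesion signalling and of the actin link were lower for 14 of 30 measured members and higher for 2, against the same 20.6% and 23.7% over all measured genes, with a median log2 ratio of -0.37. Actn1, alpha-actinin, which ties beta chains to actin, was at 1105 in activated cells and 3495 in naive cells, 3.16-fold lower, with all 3 probe sets past the rule. Dock2, an activator of Rac in migrating lymphocytes, was at 1079 and 2568 (2.38-fold lower), although 1 of its 3 probe sets did not pass (log2 ratio -0.31). Arhgap15, which restrains Rac, was at 1316 and 3000.2 (2.28-fold lower), and the GTPase gene Rhoh at 924 and 2063 (2.23-fold lower). In the other direction, Vcl, vinculin, which reinforces talin under load, was at 601 and 55.9, at least 6.01-fold higher. Rac1 was at 4759 and 3214, 1.48-fold higher, but its other measured probe set gave a log2 ratio of 0.35. The count of higher genes was 1 in place of 2 under quantile or loess scaling or with the median over probe sets. Rhoa (3561 and 3648) and the adaptor gene Bcar1 (137 and 138) lay nearest to no difference.

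Other homing and adhesion receptors were lower for 11 of 15 measured genes and higher for 2, against 20.6% and 23.7% over all measured genes, with a median log2 ratio of -0.80. Ccr9, the gut-homing chemokine receptor that works beside alpha4-beta7, was at 13.3 in activated cells and 4421 in naive cells, at least 44.2-fold lower on its brightest probe set and at a log2 ratio of -0.38 on the measured probe set that differed least. The exit receptor S1pr1 was at 359 and 2253 (6.28-fold lower), the adhesion receptor Cd96 at 487 and 2031 (4.17-fold lower) and Klf2, a transcription factor of lymphocyte trafficking, at 1409 and 3778 (2.68-fold lower). The higher genes were Alcam, the CD6 ligand, at 964 and 27.5 (at least 9.64-fold higher, all 4 measured probe sets past the rule), and Cd44, the hyaluronan receptor, at 2036 and 1108 (1.84-fold higher, all 3 past the rule). Cd48 (2300 and 2664) and Crtam (514 and 707) did not pass. Cd44 and beta1 integrins are both known as surface markers of antigen-experienced T cells, and both transcripts were higher in activated cells.

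**Figure D3:**
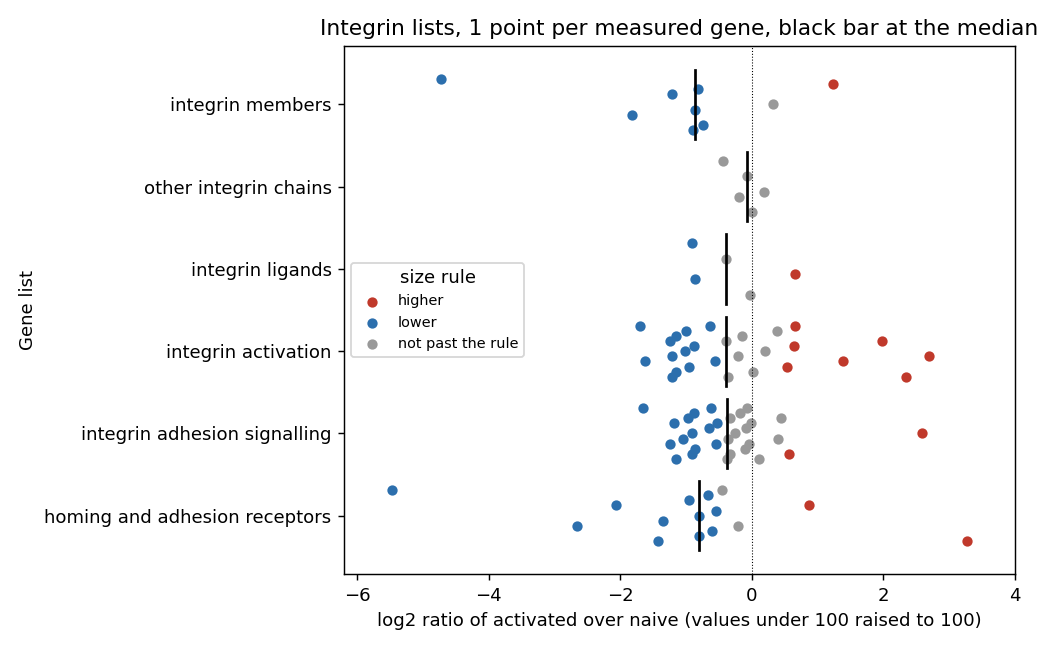
Log2 ratio of activated over naive cells for each measured gene of 6 lists, coloured by the size rule, with a black bar at each list's median. The integrin members have a median of -0.86 and the homing and adhesion receptors -0.80, while the other integrin chains cluster around -0.07 with no gene past the rule.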

How the data were processed

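Total RNA of naive and of activated CD8+ T cells was each pooled from 4 experiments and hybridised to 1 Affymetrix mouse array, per the labels' protocols. The authors deposited 1 linear, model-based intensity for each probe set, computed with the difference model of dChip and normalized by its invariant set method, per the series' design text. The sources used here give no version of it, and calls made with GCOS 1.3, per the design text, were not used. The table held 45037 probe sets other than 64 controls, with medians of 52.3 on the activated and 56.2 on the naive array. Symbols came from the platform annotation, which gave 1 symbol to 34945 probe sets, several to 932 and none to 9160. Entrez identifiers of 34741 probe sets matched RefSeq (GRCm38.p6) and changed 0 symbols.

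Log2 ratios of activated over naive and the size rule (floor 100, fold 1.4, difference above 100) were computed in Python 3.11.15. The size rule keeps only the parts of the study's criteria that intensities allow. With 1 array a group there is no test or p-value. The text names every member and other measured integrin chain, and in each list up to 4 genes past the rule with the largest ratio in each direction and up to 2 nearest to 0, with exceptions stated. Haspin, Itga2, Itgam, Fn1, Vtn and Vcam1 were also named after their values were seen. Members and lists were chosen with earlier results of these data known. Alternatives were the fold, difference and floor minimums, a pseudocount, median, quantile and loess scaling, and the choice of probe set.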

Additional observations from a re-analysis of the deposited data

How the results depend on the processing

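No paired analysis was possible because each group had 1 array. Of the 7 chains lower in activated cells, Itgae, Itga4 and Itgb7 kept that call under all 11 alternatives, as did the higher call of Itgb1. Itga6 and Itgb2 lost theirs with a fold minimum of 2, Itgal also with the median over probe sets, and Itgb3 also with the floor or the difference minimum at 200. With a fold minimum of 2, 4 of 9 measured member genes passed (3 of them lower), and 6 of 15 measured member probe sets were lower. Over all 19250 measured probe sets, 3871 passed, of which 1750 were lower. Passing genes numbered 12 of 27 for activation, 6 of 30 for adhesion signalling, 6 of 15 for homing receptors and 0 of 5 for ligands. The share over all measured genes was not computed at this minimum. The gene counts, including the 4 of 9 members, therefore cannot be read as a departure from that share. Without probe sets carrying the suffix a, s or x, 4 in place of 7 activation genes were higher. Under quantile or loess scaling or with the median over probe sets, 1 in place of 2 adhesion signalling genes was higher. The log2 ratio of Itgae was -5.34 with a floor of 50 and -3.73 with a floor of 200, as its activated values lie under the floor, and that of Itgb3 was -0.28 with a floor of 200. The other 69 of 72 member log2 ratios moved by less than 0.39, and 0 changed sign. Integrin values under 100, which include all of Itga1, cannot be read for a direction.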
